A study of Mus musculus with 6 samples.

Results

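Deoxynucleoside triphosphates (dNTPs), the building blocks of DNA, are made in the cytosol by ribonucleotide reductase, which converts ribonucleotides to deoxyribonucleotides, and are recovered from nucleosides by salvage kinases of the cytosol and of mitochondria. Ribonucleotide reductase joins a large subunit (Rrm1) with a small subunit, which is Rrm2 in dividing cells and the p53-inducible Rrm2b in cells that do not divide or have damaged DNA. Mitochondrial DNA is copied throughout the cell cycle, so its supply relies on mitochondrial salvage and on the import of precursors, while the hydrolases Samhd1 and Dut remove dNTPs or dUTP. The transcripts described here are the 10 genes Rrm1, Rrm2, Rrm2b, Tk1, Tk2, Dck, Dguok, Samhd1, Nme4 and Dut. They were found by symbol in the deposited count table, and 11 of its 51499 loci carried such a name. Of these, 10 passed the filter on low counts, 1 for each gene, and none was merged with another gene. The remaining locus, also named Dut, held 1 fragment in all libraries together and was not tested.

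The study compared wild-type (WT) and Yme1l-/- mouse embryonic fibroblasts (MEFs). YME1L, encoded by the gene listed as Yme1l1, is a protease anchored in the inner membrane of mitochondria that is driven by ATP. Both genotypes were derived from animals with loxP sites in Yme1l and were immortalized with SV40 large T antigen, a protein that binds p53 and Rb. The cells were transduced with Cre recombinase, and single clones were then grown and assigned by genotyping to WT, which keep the floxed gene (Yme1l fl/fl), and Yme1l-/-. The 3 libraries of a genotype came from cultures numbered 1 to 3, and nothing in the labels says whether they were grown from the same clone. A p-value therefore measures the spread between cultures, and a difference between clones cannot be told apart from an effect of the deletion.

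The libraries held between 33180867 and 49351107 counted fragments, with the 2 deepest in Yme1l-/-. Yme1l1 had 6327, 6292 and 5968 fragments in WT and 1327, 1963 and 2067 in Yme1l-/-, in the direction of the labels, which left 20.7% of the WT level. Of 13867 loci tested, 67.7% were called by edgeR at an adjusted p under 0.05, 33.6% higher and 34.1% lower in Yme1l-/- MEFs. Whole chromosomes also differed in their median log2 fold change, from 0.59 for chromosome 15 to -0.44 for chromosome 12, while the median of all loci was -0.00411. Since this touches most of the genes described here, the value of each of the 10 after removal of the median of its chromosome is given as well, and that of other genes where it moved much. Fibroblast markers were abundant, at a summed 10951 to 11506 CPM (fragment counts scaled to a common library size) in WT and 6712 to 7195 CPM in Yme1l-/-, with 1 of 7 tested markers higher (Col1a1, log2 fold change 0.43) and 6 lower, among them Vim (-1.33) and Col3a1 (-2.48). WT replicate 2 stood apart for Col3a1 (301 CPM, against 86.3 and 91.1 CPM in the other WT libraries). Without that library Col3a1 was called at -1.63 (edgeR adjusted p 2.2e-08), and with any one of the Yme1l-/- replicates 1, 2 or 3 left out its value stayed at -2.50, -2.48 and -2.44 but was not called (edgeR adjusted p 0.085, 0.090 and 0.092). With chromosome medians removed, 0 fibroblast markers were called higher and 5 lower, since Col1a1 and Pdgfrb lost their calls. Of all loci, 31.1% were then called higher and 31.7% lower. The fibroblast marker Thy1 was at 4 to 6 fragments in WT and at 0 in Yme1l-/- libraries. Of the epithelial, blood and endothelial markers, 1 in each group passed the filter, so their levels are those of single genes. Epcam, of epithelial cells, was at 1.07 to 1.51 CPM in WT and 0.0572 to 0.0992 CPM in Yme1l-/-. Cd68, of macrophages, was at 1.68 to 1.84 and 3.46 to 3.91 CPM. Kdr, of endothelial cells, was at 0.766 to 1.22 and 1.43 to 1.86 CPM. Log2 fold changes were -3.83 for Epcam, 1.04 for Cd68 and 0.72 for Kdr. Kdr was not called without WT replicate 3 or Yme1l-/- replicate 2. Below the filter, the macrophage marker Csf1r held 3, 2 and 5 fragments in WT and 11, 20 and 11 in Yme1l-/-. The endothelial marker Pecam1 held 0, 0 and 1 against 3, 6 and 10, and the epithelial marker Krt14 held 6, 8 and 6 against 0, 1 and 2. The neural marker Gfap held 0, 1 and 3 against 2, 2 and 3. The macrophage marker Adgre1 and the neuronal marker Snap25 were at 0 in all libraries. The part of these marker differences in the results was not tested.

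Among the 10 dNTP genes, Rrm2b, Nme4, Dguok, Samhd1 and Rrm1 were called higher in Yme1l-/- MEFs, Rrm2 and Tk1 were called lower, and Tk2, Dck and Dut were not called. The 7 calls (70%) compare with 67.7% of all tested loci, so that a call as such did not set these genes apart. For 8 of the 10 genes the range of one genotype lay wholly apart from that of the other, against 71.9% of all loci. Nme4 alone both was called and changed at least 2-fold, which 17.7% of all loci did, 9.1% higher and 8.63% lower. Across the 10 genes the log2 fold change had a median of 0.15, and their summed level was 1352 to 1411 CPM in WT and 1365 to 1421 CPM in Yme1l-/- libraries. The summed level of the set thus overlapped between genotypes while its composition differed. After the chromosome medians were removed, 6 genes were called higher and 2 lower, the gain being Tk2, against 62.8% of all loci called, 31.1% higher and 31.7% lower.

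**Figure D1:**
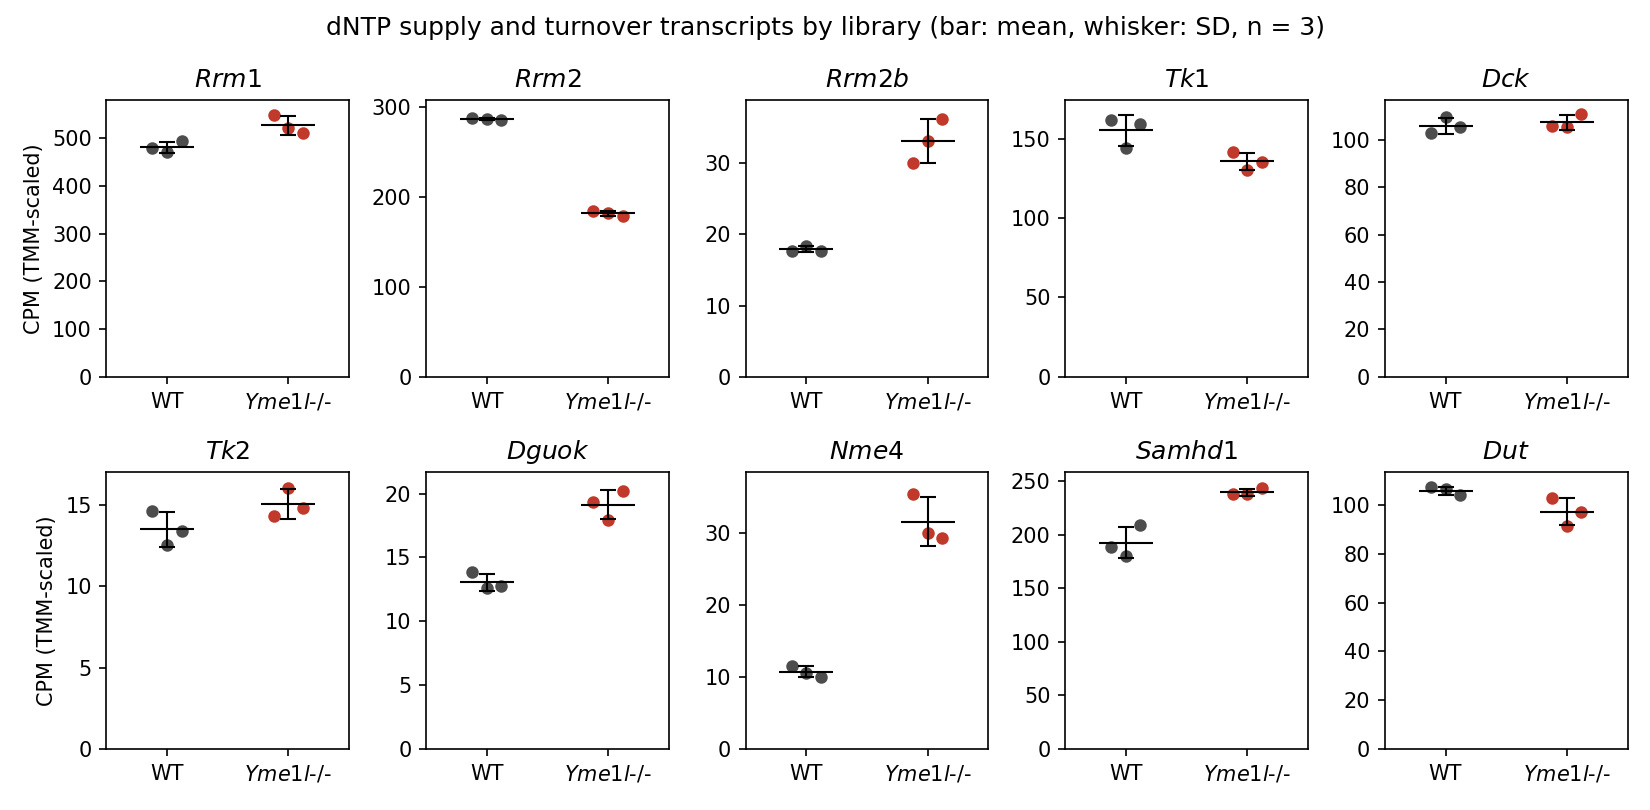
Level of each of the 10 transcripts in each library, in CPM scaled with TMM factors, with the horizontal bar at the mean and whiskers for the SD of 3 libraries, and with each axis starting at 0. Rrm2 and Tk1 sit lower and Rrm1, Rrm2b, Dguok, Nme4 and Samhd1 sit higher in Yme1l-/- than in WT libraries, while Dck and Tk2 overlap.

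The subunits of ribonucleotide reductase differed in direction. Rrm2 (chromosome 12, 24708241 to 24714146, mm10), the small subunit of dividing cells, was at 288, 286 and 285 CPM in the WT libraries and at 184, 182 and 179 CPM in the Yme1l-/- libraries. The replicates lay close together, and every Yme1l-/- library was below every WT library. Rrm2 fell to 63.4% of the WT level and decreased by 0.66 ± 0.04 on the log2 scale (SE, n = 3 per genotype; edgeR adjusted p 5.9e-08). Chromosome 12 had the lowest median of 20 chromosomes. With that median removed, Rrm2 was still called lower, at -0.22 on the log2 scale (edgeR adjusted p 0.00049).

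Rrm2b (chromosome 15, deposited locus 37923952 to 37966218), the small subunit that serves cells outside S phase and mitochondrial DNA, was at 17.7, 18.4 and 17.6 CPM in WT and at 30.0, 33.02 and 36.1 CPM in Yme1l-/-. The lowest Yme1l-/- library was well above the highest WT library, and the spread was wider in Yme1l-/-. The rise was 1.85-fold, or 0.89 ± 0.07 on the log2 scale (SE, edgeR adjusted p 9.4e-07). Chromosome 15 had the highest median of all chromosomes, 0.59, and 81.3% of its 545 loci had a log2 fold change above 0. With that median removed, Rrm2b was called higher at 0.29 (edgeR adjusted p 0.0045). The deposited locus runs past the annotated gene, which ends at 37961318, and an antisense gene, Gm49085, is annotated on the opposite strand there. The processed pseudogene Gm3362 lies inside Rrm2b on the same strand as a locus of its own, with 3093 to 4627 fragments in WT and 4003 to 6304 in Yme1l-/- libraries, more than the 576 to 603 and 1051 to 1840 of Rrm2b. Gm3362 was not called (log2 fold change -0.12 ± 0.17, SE, edgeR adjusted p 0.58), and whether it exchanged fragments with Rrm2b was not tested.

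Rrm1 (chromosome 7, 102441695 to 102469771), the large subunit that carries the catalytic and regulatory sites, was at 480, 470 and 494 CPM in WT and at 550, 521 and 512 CPM in Yme1l-/-. The ranges did not overlap, but the gap between them was small. The log2 fold change was 0.13 ± 0.05 (SE, edgeR adjusted p 0.028). This call depended on single libraries, since the edgeR adjusted p was 0.074 without WT replicate 1, 0.0998 without WT replicate 2, 0.066 without Yme1l-/- replicate 1 and 0.053 without Yme1l-/- replicate 2. It was also lost, at 0.058, when the filter on low counts was left out. The median of chromosome 7 was -0.01, and the value after its removal was 0.14.

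Since Rrm1 and Rrm2 encode the subunits of the S-phase enzyme and moved in different directions, the sequence just before each start is shown. Both are from RefSeq (GRCm38.p6), plus strand, trimmed to end at the base before the annotated start, and capitals mark CCAAT, the core of the NF-Y motif.
Rrm1, chr7:102441545-102441694: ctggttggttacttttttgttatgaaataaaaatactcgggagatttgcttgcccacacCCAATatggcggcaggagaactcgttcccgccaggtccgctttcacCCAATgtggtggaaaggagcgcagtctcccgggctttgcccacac
Rrm2, chr12:24708104-24708240: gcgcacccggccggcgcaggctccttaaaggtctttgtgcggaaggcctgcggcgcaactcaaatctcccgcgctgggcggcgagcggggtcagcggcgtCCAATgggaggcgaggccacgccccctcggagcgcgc

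In promoter windows of 300 bases, searched on both strands, CCAAT was present in 37.4% of 32851 RefSeq promoters. Of the 9 dNTP genes with a promoter in the table, Rrm1 held it at 2 positions and Rrm2 at 1, and the other 7 did not hold it. The CHR element (TTTGAA or TTCGAA), known from late cell-cycle promoters, was in 19.2% of promoters and in those of Dck, Tk2 and Nme4. Spelled-out E2F sites (TTTCCCGC, TTTCGCGC, TTTGCCGC or TTTGGCGC, 2.26% of promoters), the interferon-response core made of a pair of GAAA copies 2 bases apart (3.44%) and the ATF4 core TGATGNAA (3.97%) matched none of the 9. Such a match is a description of letters. Of the genes with CCAAT, Rrm1 was called higher and Rrm2 lower, and of those with the CHR element, Nme4 was called higher while Dck and Tk2 were not called.

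**Figure D2:**
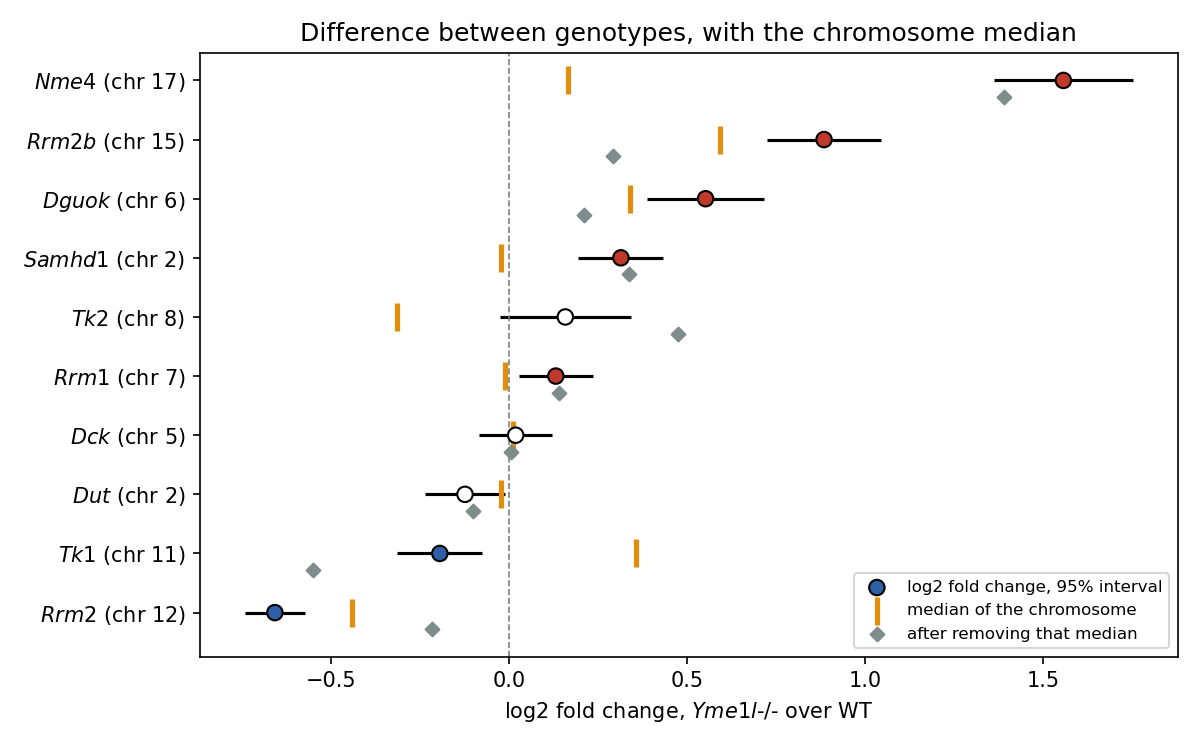
Log2 fold change of each transcript (Yme1l-/- over WT) with its 95% interval, filled red where called higher, blue where called lower and white where not called, with an orange bar at the median of its chromosome and a grey diamond at the value after that median was removed. Rrm2 and Rrm2b lie on the side of 0 to which their chromosomes are shifted, at -0.44 and 0.59, whereas Tk1 and Tk2 lie against theirs.

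Of the cytosolic salvage kinases, Tk1 was called lower and Dck was not called. Tk1 (chromosome 11, annotated gene 117815526 to 117826092), the S-phase thymidine kinase, was at 162, 144 and 160 CPM in WT and at 141, 130 and 135 CPM in Yme1l-/-. The ranges came close, with WT replicate 2 just above Yme1l-/- replicate 1. Tk1 fell to a log2 fold change of -0.19 ± 0.05 (SE, edgeR adjusted p 0.0077). The deposited locus of Tk1 reaches past the annotated gene, from 117809668 to 117839908, and overlaps a merged locus on the opposite strand (Afmid, Gm20708 and Syngr2) that was not called (log2 fold change -0.12 ± 0.06, SE, edgeR adjusted p 0.088). Most loci of chromosome 11 had a positive log2 fold change (median 0.36), and with that median removed Tk1 was called lower at -0.55, with an edgeR adjusted p of 5.2e-06.

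Dck (chromosome 5, 88764996 to 88783281), the deoxycytidine kinase that also phosphorylates purine deoxynucleosides, was at 103, 109 and 106 CPM in WT and at 106, 105 and 111 CPM in Yme1l-/-. The libraries were interleaved. The log2 fold change was 0.02, with a 95% interval from -0.08 to 0.12 and an edgeR adjusted p of 0.73. The interval leaves room for a small rise or a small fall. The median of chromosome 5 was 0.01, and after its removal the value was 0.0071 (edgeR adjusted p 0.90).

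The mitochondrial salvage kinases were at lower levels, and their summed level was 25.1 to 28.5 CPM in WT and 33.6 to 35.0 CPM in Yme1l-/- libraries. Dguok (chromosome 6, 83480217 to 83506969), the purine deoxynucleoside kinase, was at 13.8, 12.6 and 12.7 CPM in WT and at 19.3, 17.9 and 20.2 CPM in Yme1l-/-. No library overlapped. Dguok rose by 0.55 ± 0.07 on the log2 scale (SE, edgeR adjusted p 5.2e-05). The median of chromosome 6 was 0.34, and after its removal the log2 fold change of Dguok was 0.21, with an edgeR adjusted p of 0.029.

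Tk2 (chromosome 8, 104226685 to 104248558), the pyrimidine deoxynucleoside kinase, was at 14.6, 12.5 and 13.4 CPM in WT and at 14.3, 16.0 and 14.8 CPM in Yme1l-/-. WT replicate 1 lay within the Yme1l-/- range. Tk2 was not called, with a log2 fold change of 0.16, a 95% interval from -0.02 to 0.34 and an edgeR adjusted p of 0.11. Chromosome 8 had a negative median (-0.32), and with this median removed Tk2 was called higher at 0.47, with an edgeR adjusted p of 0.00045. It was also called with upper-quartile scaling, at 0.22 and an edgeR adjusted p of 0.035. Without WT replicate 2 its value was 0.10. The statement that Tk2 was not called therefore rests on the scaling.

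Nme4 (chromosome 17, 26091734 to 26095508), the nucleoside diphosphate kinase of mitochondria, which makes triphosphates from diphosphates, had the largest change of the 10 genes. It held 382, 345 and 327 fragments in WT and 1239, 1511 and 1492 in Yme1l-/-, that is 11.5, 10.5 and 10.01 CPM against 35.4, 30.0 and 29.3 CPM. Every Yme1l-/- library was far above every WT library. Nme4 rose 2.94-fold, or 1.56 ± 0.09 on the log2 scale (SE, edgeR adjusted p 4.6e-08). The median of chromosome 17 was 0.17, and after its removal the log2 fold change was 1.39.

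Other nucleoside diphosphate kinases changed less. The merged locus of Nme1 and Nme2, the abundant cytosolic enzymes, was at 767 ± 52.0 CPM (SD, n = 3) in WT and 929 ± 74.3 CPM in Yme1l-/-, a log2 fold change of 0.28 ± 0.07 (SE, edgeR adjusted p 0.0041) that turned to -0.08 and was not called once the median of chromosome 11 was removed. Nme3, merged with Mrps34, had a log2 fold change of 0.44 ± 0.06 (SE, edgeR adjusted p 6.9e-05), or 0.27 with the median of chromosome 17 removed. Nme6, whose product is also found in mitochondria, fell to -0.37 ± 0.09 (SE, edgeR adjusted p 0.0027), and this call was lost at -0.01 after the median of chromosome 9 was removed.

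Of the hydrolases, Samhd1 was called higher and Dut was not called. Samhd1 (chromosome 2, 157097533 to 157135265), which cleaves dNTPs to nucleosides and triphosphate, was at 189, 180 and 209 CPM in WT and at 238, 238 and 244 CPM in Yme1l-/-. The WT libraries were spread widely, yet all lay below the Yme1l-/- libraries, which agreed closely. Samhd1 rose by 0.31 ± 0.05 on the log2 scale (SE, edgeR adjusted p 0.00032). Dut (chromosome 2, 125247190 to 125258608), which cleaves dUTP and so keeps uracil out of DNA, was at 107, 106 and 104 CPM in WT and at 103, 91.6 and 97.4 CPM in Yme1l-/-. All 3 Yme1l-/- libraries were below all WT libraries, but replicate 1 by little. Dut missed the threshold narrowly (log2 fold change -0.12 ± 0.05, SE, edgeR adjusted p 0.0505), and the 95% interval ran from -0.24 to -0.01. Its value was -0.06 with upper-quartile scaling, -0.08 without Yme1l-/- replicate 2 and -0.16 without Yme1l-/- replicate 1, where it was called. The median of chromosome 2 was -0.02, so its removal moved these genes little, to 0.34 for Samhd1 and -0.10 for Dut.

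Ratios of fragments within a library do not depend on library scaling, and 4 were computed to describe how the partner enzymes shifted against each other. The ratio of Rrm2b to Rrm2 was 0.0615, 0.0643 and 0.0619 in WT and 0.163, 0.182 and 0.202 in Yme1l-/-, a difference of 1.54 on the log2 scale. That of Rrm1 to Rrm2 was 1.67, 1.64 and 1.73 in WT and 2.98, 2.86 and 2.86 in Yme1l-/-, a log2 difference of 0.79. Rrm2 was thus lower relative to both of the other subunits in each Yme1l-/- library. Of the first difference, 1.03 equals the gap between the medians of chromosomes 15 and 12, which leaves 0.50 with both medians removed, and for Rrm1 to Rrm2 that removal leaves 0.36.

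Ratios of mitochondrial to cytosolic kinases were also higher in each Yme1l-/- library. The ratio of Tk2 to Tk1 was 0.0905, 0.0866 and 0.0837 in WT and 0.101, 0.123 and 0.109 in Yme1l-/-, a log2 difference of 0.35. The ratio of Dguok to Dck was 0.135, 0.115 and 0.121 in WT and 0.183, 0.170 and 0.182 in Yme1l-/-, a log2 difference of 0.53. With chromosome medians removed, the log2 difference was 1.02 for Tk2 to Tk1 and 0.20 for Dguok to Dck. For each of the 4 ratios the two-sided exact permutation p was 0.1, also after adjustment over the 4, which is the smallest p that 3 against 3 libraries allow, so none could pass 0.05.

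**Figure D3:**
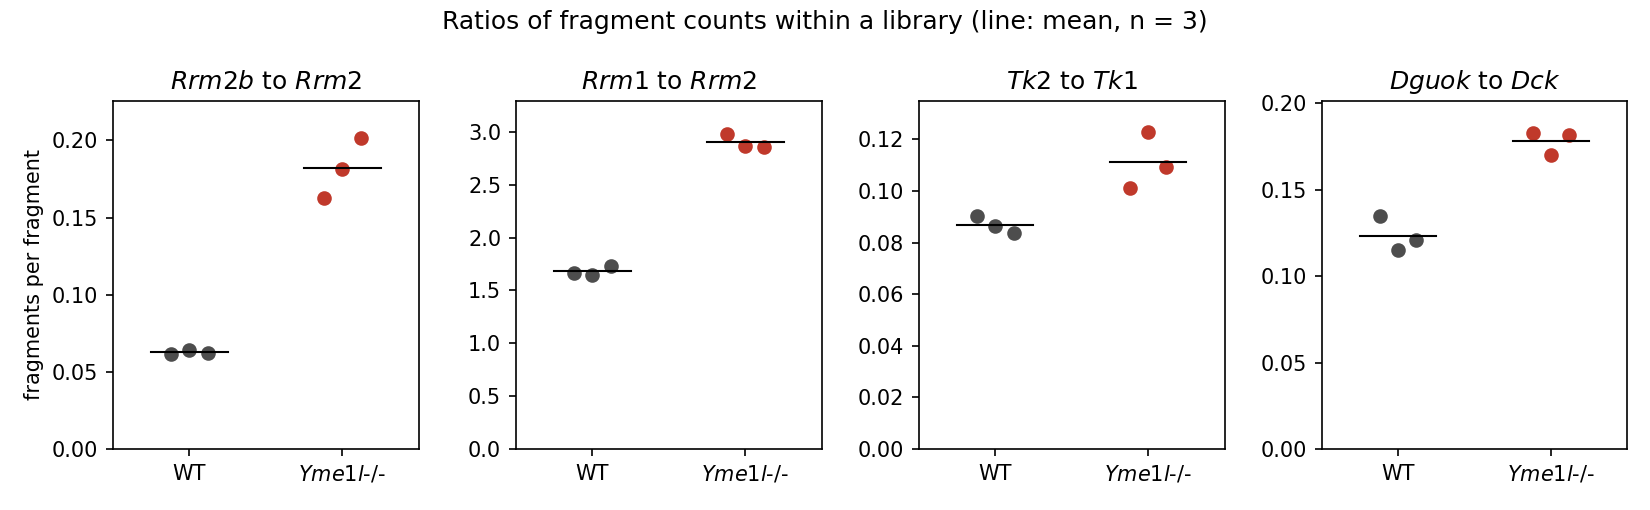
Ratio of fragment counts of a pair of genes in each library, with a line at the mean of 3 libraries and each axis starting at 0. In the 4 panels, all Yme1l-/- libraries lie above all WT libraries, and Rrm2b to Rrm2 shifts from 0.0615 to 0.0643 in WT to 0.163 to 0.202 in Yme1l-/-, the widest of the 4 before chromosome medians are removed, after which Tk2 to Tk1 differs most (1.02 against 0.50 on the log2 scale).

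Levels of different genes were compared per length, as CPM per kilobase of annotated exon. In WT MEFs, Rrm2 was the most abundant transcript at 131 ± 0.667 (SD, n = 3), followed by Rrm1 at 120.5 ± 2.93 and Tk1 at 108 ± 6.58. Dut (49.002 ± 0.763), Samhd1 (35.1 ± 2.68) and Dck (34.4 ± 1.10) formed a middle range, in which the libraries of Samhd1 and Dck overlapped. The mitochondrial enzymes Dguok (11.8 ± 0.616), Nme4 (10.1 ± 0.733) and Tk2 (5.61 ± 0.445) came next, and Rrm2b was lowest at 3.93 ± 0.0948. The transcripts for S-phase synthesis and thymidine salvage thus stood above those for mitochondrial supply by these length-scaled levels.

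In Yme1l-/- MEFs this order changed at several places. Rrm1 was highest at 132 ± 4.92 (SD, n = 3), and Rrm2, at 82.9 ± 1.22, came below Tk1 at 94.2 ± 3.77. Nme4, at 29.9 ± 3.17, passed Dguok at 17.3 ± 1.04, and Rrm2b, at 7.25 ± 0.667, came level with Tk2 at 6.25 ± 0.375, whose libraries it overlapped. Dut (45.0 ± 2.60) and Samhd1 (43.6 ± 0.594) overlapped as well, with Dck after them at 34.9 ± 1.04. By the FPKM values deposited by the authors, 1 pooled value per genotype, the order differed in places. In WT, Rrm1 (152) was above Rrm2 (141), Nme4 (14.3) was just above Dguok (13.9), and Samhd1 (68.2) was well apart from Dck (35.3). In Yme1l-/-, Dut (98.6) was above Rrm2 (89.6) and Nme4 (42.1) above Dck (35.8). The order of these neighbours therefore differed between both measures, and the cause was not tested.

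**Figure D4:**
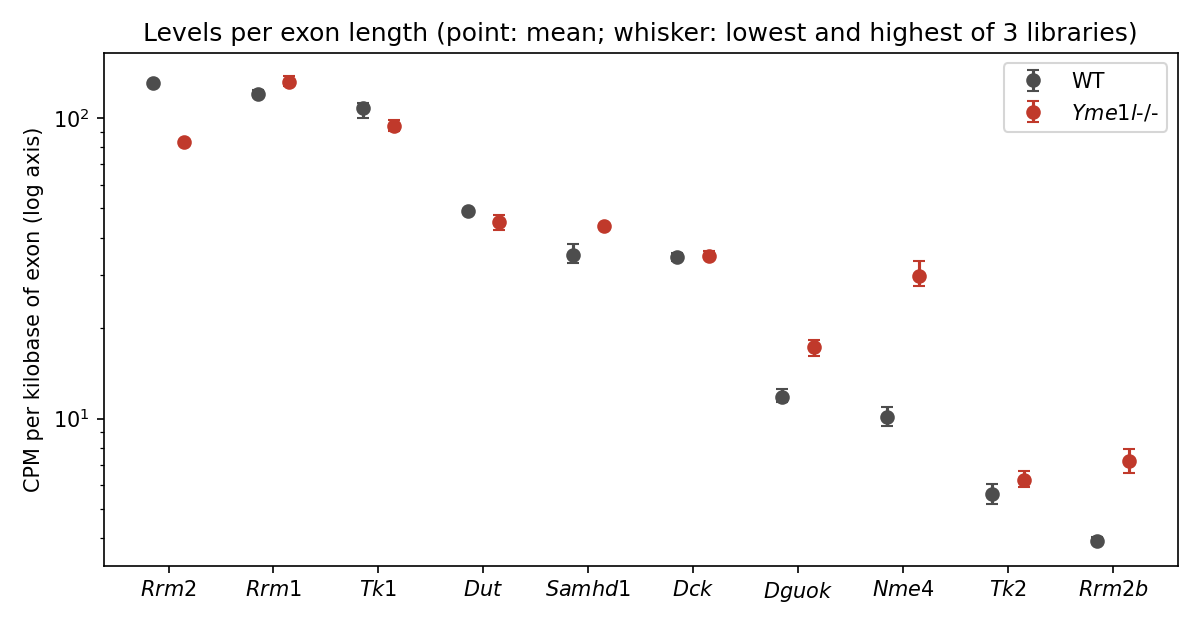
Level of each transcript in CPM per kilobase of exon on a log axis, with points at the mean and whiskers from the lowest to the highest of 3 libraries, ordered by the WT level. By this measure Rrm2 drops from the first place in WT (131) to below Rrm1 and Tk1 in Yme1l-/- (82.9), and Nme4 (10.1 to 29.9) and Rrm2b (3.93 to 7.25) lie higher in Yme1l-/- MEFs.

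Because loci on a chromosome moved together, each gene was set against its 40 nearest tested loci, 20 on either side. Nme4 was above all 40 of its neighbours, whose median log2 fold change was 0.32. Samhd1 was above 36 of its neighbours, with a median of -0.26, and Rrm2b was above 34, with a median of 0.59. Tk1 was below 37 of its neighbours, with a median of 0.26. These 4 genes thus stood towards the edge of the values around them.

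The other genes lay nearer the middle of their surroundings. The neighbours of Rrm2 had a median of -0.47, and 24 of them were above Rrm2 and 16 below. Dguok had 18 neighbours above and 22 below, around a median of 0.47. For Rrm1, 24 neighbours were above, with a median of 0.28, and for Dut 27 were above, with a median of 0.07. Tk2 was above 27 of its neighbours (median -0.09) and Dck above 26 (median -0.22). Neighbouring loci are not independent replicates, so these counts are given as a description.

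**Figure D5:**
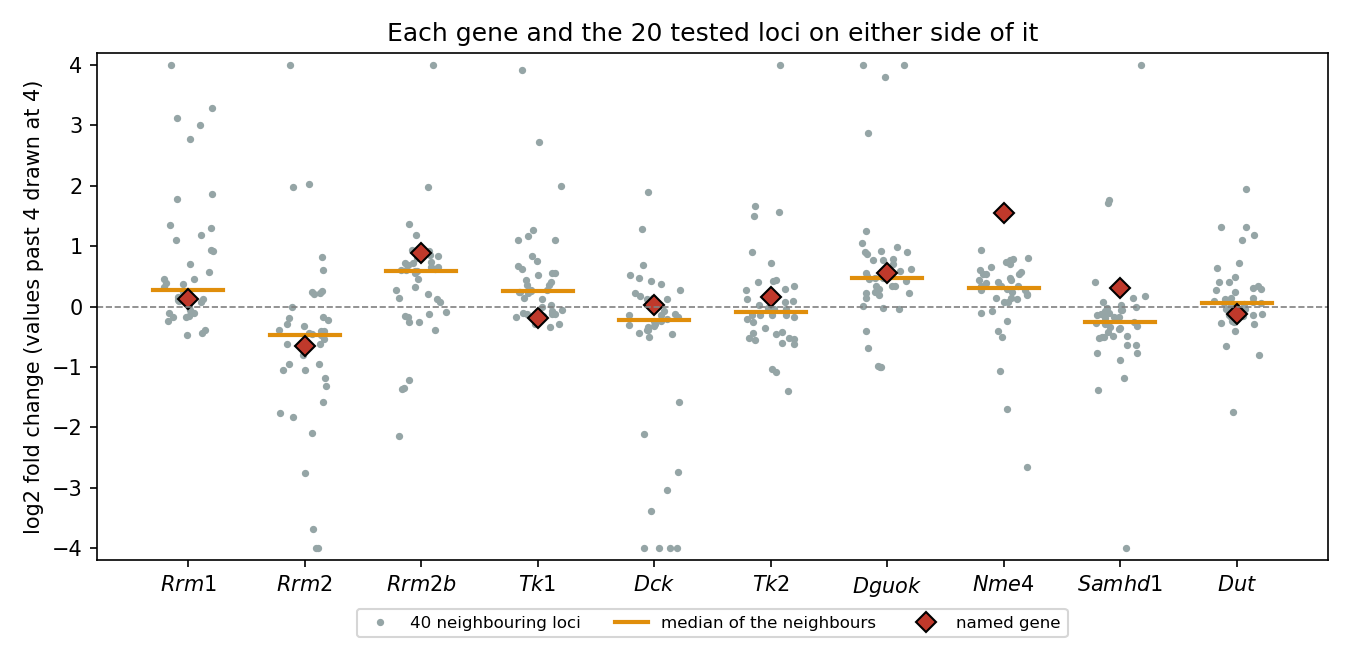
Log2 fold change of each dNTP gene (red diamond) and of the 20 tested loci on either side of it (grey points, with values past 4 in either direction drawn at 4), with an orange line at the median of the 40 neighbours. Nme4 sits above all its neighbours and Tk1 below 37 of 40, whereas Rrm2 and Dguok sit near the medians of theirs, at -0.47 and 0.47.

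The enzymes around the 10 genes were described with a wider list of 46 symbols, of which 44 loci were tested. Of these, 20 were called higher and 13 lower, 75% against 67.7% of all loci, with a median log2 fold change of 0.12. With chromosome medians removed, 19 were higher and 11 lower, where 31.1% and 31.7% of all loci were, and the median was 0.05. By role, 5 of 12 pyrimidine enzymes were higher and 3 lower, 4 of 7 purine enzymes higher and 2 lower, and 2 of 3 diphosphate kinase loci higher and 1 lower. Of the nucleotidases and sanitizing enzymes, 5 of 11 were higher and 2 lower. Of the carriers 2 of 5 were higher and 3 lower, and of the reductants 2 of 6 were higher and 2 lower.

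In the route to dTTP, Tyms, the thymidylate synthase that uses dUMP from Dut, was at 143 ± 0.398 CPM (SD, n = 3) in WT MEFs and 139 ± 12.6 CPM in Yme1l-/- MEFs and was not called (-0.04 ± 0.06, SE, edgeR adjusted p 0.55), but was called lower without Yme1l-/- replicate 1 (-0.12, edgeR adjusted p 0.035). Dctd, which makes dUMP from dCMP, fell from 89.0 ± 4.24 to 58.0 ± 2.64 CPM (log2 fold change -0.62 ± 0.05, SE, edgeR adjusted p 1.3e-06), and it was still called at -0.30 with the median of chromosome 8 removed. Dtymk, the thymidylate kinase that acts after Tk1 and Tyms, rose from 61.5 ± 3.58 to 73.0 ± 6.62 CPM (0.25 ± 0.07, SE, edgeR adjusted p 0.0077, or 0.40 with the chromosome median removed). Shmt2, which feeds one-carbon units to mitochondria, rose from 361 ± 14.2 to 794 ± 23.2 CPM, a log2 fold change of 1.14 ± 0.05 (SE), or 0.84 with the median of chromosome 10 removed.

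The UMP/CMP kinases went apart. The cytosolic Cmpk1 fell from 62.0 ± 2.71 to 52.6 ± 3.75 CPM (log2 fold change -0.24 ± 0.06, SE, edgeR adjusted p 0.0041), a call that was lost at -0.14 with the chromosome median removed. The mitochondrial Cmpk2, an interferon-stimulated gene, held 42, 52 and 33 fragments in WT and 172, 261 and 261 in Yme1l-/-. It lies on chromosome 12 like Rrm2, and its log2 fold change was 1.97 ± 0.16 (SE) against -0.66 for Rrm2, or 2.41 against -0.22 with the chromosome median removed. Upp1, the uridine phosphorylase, fell from 92, 136 and 77 fragments to 6, 16 and 16.

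Among the purine enzymes, Ada, the adenosine and deoxyadenosine deaminase, rose from 10.5 ± 0.464 to 25.9 ± 2.75 CPM (1.3 ± 0.09, SE, edgeR adjusted p 1.8e-07), and Guk1, the guanylate kinase that follows Dguok, rose from 23.3 ± 1.13 to 49.8 ± 3.92 CPM (1.09 ± 0.07, SE, edgeR adjusted p 8.7e-08, or 0.74 with the chromosome median removed). Ak4, a mitochondrial adenylate kinase, fell from 269, 277 and 253 fragments to 44, 89 and 81. Nt5e, the surface nucleotidase that makes adenosine from AMP, fell from 435, 437 and 360 fragments to 14, 25 and 30. Gsr, the glutathione reductase that can supply electrons for ribonucleotide reduction, fell from 129 ± 7.27 to 60.6 ± 0.846 CPM (-1.09 ± 0.05, SE, edgeR adjusted p 9.6e-09, or -0.77 with the chromosome median removed). The other called reductants, named after their values were seen, were of the thioredoxin system, the main electron source of ribonucleotide reductase. The mitochondrial thioredoxin Txn2 rose by 0.99 ± 0.05 on the log2 scale (SE, 0.39 with the median of chromosome 15 removed) and the cytosolic thioredoxin reductase Txnrd1 by 0.32 ± 0.04 (0.02 and not called after removal), while the cytosolic thioredoxin Txn1 fell to -0.32 ± 0.05 (-0.22 after removal).

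Of the 5 tested carriers, 2 were called higher and 3 lower, where 67.7% of all loci were called. With chromosome medians removed 2 were higher and 2 lower, where 62.8% of all loci were called. Slc25a33, a pyrimidine nucleotide carrier of the mitochondrial inner membrane, rose from 13.2 ± 1.36 to 17.2 ± 0.937 CPM (0.37 ± 0.09, SE, edgeR adjusted p 0.0026). The related carrier Slc25a36 fell from 55.1 ± 2.57 to 42.6 ± 3.06 CPM (-0.37 ± 0.06, SE, edgeR adjusted p 0.00024), but its value was -0.01 and not called with the median of chromosome 9 removed. The equilibrative nucleoside transporter Slc29a1 fell from 324 ± 14.2 to 227 ± 13.4 CPM (-0.52 ± 0.05, SE), and Slc29a3, of lysosomes and mitochondria, rose from 23.0 ± 1.69 to 46.3 ± 1.11 CPM (1.01 ± 0.06, SE, or 0.72 with the chromosome median removed). The other member of the family, Slc29a2, named here to complete the 5, fell from 20.5 ± 0.505 to 13.1 ± 0.484 CPM (-0.65 ± 0.07, SE).

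Rrm1, Rrm2, Tk1, Dut and Tyms are transcribed mainly in S phase, so a list of other S-phase and proliferation genes was read beside them. Of 28 tested loci, 12 were called higher and 6 lower, 64.3% against 67.7% of all loci, and the median log2 fold change was 0.06. The summed level of the list was 6935 to 7336 CPM in WT and 7065 to 7110 CPM in Yme1l-/-, so the libraries overlapped. With chromosome medians removed, 10 were higher and 8 lower, where 31.1% and 31.7% of all loci were. The highest called values were those of the replicative helicase subunit Mcm2 (0.73 ± 0.05, SE), the primase Prim1 (0.51 ± 0.04) and the licensing factor Cdc6 (0.38 ± 0.05), and with chromosome medians removed these were 0.39, 0.21 and 0.03, the last not called. The lowest were those of E2f8 (-0.89 ± 0.06), an inhibitor of S-phase transcription, the proliferation marker Mki67 (-0.76 ± 0.10) and the cyclin Ccne2 (-0.69 ± 0.09). In bulk samples, fewer cells in S phase and less RNA per cell cannot be told apart, and the part of the cell cycle in the values of Rrm2 and Tk1 was not tested.

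Rrm2b is a known p53 target, and the cells carry SV40 large T antigen in both genotypes. Of 15 tested loci of a p53 list, 5 were called higher and 3 lower, 53.3% against 67.7% of all loci, and the median log2 fold change was 0.02. With chromosome medians removed, 4 were higher and 5 lower, where 31.1% and 31.7% of all loci were. The highest were Perp (1.09 ± 0.06, SE, or 0.79 with the median of chromosome 10 removed), Sesn2 (1.02 ± 0.07) and Trp53 itself (0.74 ± 0.04, or 0.38 with the median of chromosome 11 removed), and the lowest were Eda2r (-0.63 ± 0.11, or -0.42 with the median of the X chromosome removed), Bbc3 (-0.59 ± 0.13) and Cdkn1a (-0.19 ± 0.06). Cdkn1a, the cell-cycle inhibitor, was at 45.6 ± 3.22 CPM (SD, n = 3) in WT MEFs and 39.9 ± 2.08 CPM in Yme1l-/- MEFs (edgeR adjusted p 0.018). The call of Cdkn1a was lost with upper-quartile scaling (edgeR adjusted p 0.079), without WT replicate 2 (0.080) and without Yme1l-/- replicate 2 (0.085), while with chromosome medians removed Cdkn1a was called at -0.36 (0.00044). The part of p53 in the value of Rrm2b was not tested.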

How the data were processed

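Poly(A) RNA of 3 WT and 3 Yme1l-/- cultures was sequenced as stranded paired-end libraries. According to the submitters' processing notes and the study's methods, reads were mapped to mm10 (GRCm38) with HISAT2 2.0.4, assembled with StringTie 1.3.3 and compared with Cuffdiff 2.2.1. The authors deposited raw fragment counts per locus, not normalized, and a table with FPKM values as 1 pooled value per genotype. That table also holds the authors' fold changes and p-values, which were not used. How fragments mapping to several places, or to overlapping genes on opposite strands, were counted is not given in the sources used here.

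The deposited counts went into edgeR 4.0.16 under R 4.3.3 (filterByExpr with a minimum count of 10, TMM factors, two-sided quasi-likelihood test without covariates). This fit is the source of the adjusted p-values of genes given here (Benjamini-Hochberg over 13867 loci), except where an alternative is named. Those of an alternative were adjusted within that alternative. Loci with an adjusted p under 0.05 were called. Positive log2 fold changes mean higher in Yme1l-/- MEFs, and their SE was derived from the test statistic. The fitting code was tested on simulated data. Each library counted as a replicate, since pairs within a genotype differed beyond sampling noise (lowest chi-square per degree of freedom 8.54). Counting error from fragment numbers is only a lower limit of the spread between libraries, and PCR copies were not identified. Exon lengths came from GENCODE annotation of GRCm38 and promoters from RefSeq. The chromosome median was removed as an offset for chromosomes with at least 100 tested loci.

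The 10 genes and all lists were chosen with earlier results of these data known. Of each list, the text names the 3 highest and 3 lowest called loci, calls of at least 2-fold, and a set of paralogs or partners of the 10 genes, with further members of small groups named where the text says so. Alternatives were RLE and upper-quartile scaling, DESeq2 1.42.0, dropping the filter except for loci with no fragment, a stricter minimum of 10 in all libraries, a block for the replicate number, removal of chromosome medians, and omission of each library in turn. The ratios with chromosome medians removed and the alternatives for Col3a1 were added after seeing the data.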

Additional observations from a re-analysis of the deposited data

How the results depend on the processing

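Among the 10 genes, 6 to 8 were called under the alternatives, and the calls of Rrm2, Rrm2b, Tk1, Dguok, Nme4 and Samhd1 kept direction and threshold in each of them. Over all alternatives the log2 fold change was 1.39 to 1.62 for Nme4, 0.27 to 0.38 for Samhd1, 0.29 to 0.95 for Rrm2b, 0.21 to 0.61 for Dguok, -0.67 to -0.22 for Rrm2 and -0.55 to -0.13 for Tk1. The values nearest 0 for Rrm2b, Dguok and Rrm2 came from removing chromosome medians, and the cause was not tested. Tk2 ran from 0.10 to 0.47. Rrm1 ran from 0.10 to 0.19, with edgeR or DESeq2 adjusted p from 0.0042 to 0.0998.

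Dut (log2 fold change -0.12) passed the edgeR threshold with RLE scaling (adjusted p 0.044), without the filter (0.044), with at least 10 counts in every sample (0.049) and without Yme1l-/- replicate 1 (0.010), where its fold change was -0.16. It moved towards 0 with upper-quartile scaling (-0.064, 0.29) and without Yme1l-/- replicate 2 (-0.081, 0.23). Values near 0 changed sign, Dck to -0.0051 without WT replicate 1 and -0.0038 without Yme1l-/- replicate 3 (up to 0.040 with other libraries left out and 0.078 with upper-quartile scaling), and Tyms to 0.016 with upper-quartile scaling and 0.012 without Yme1l-/- replicate 2, whereas without Yme1l-/- replicate 1 Tyms was called lower at -0.12 (edgeR adjusted p 0.035). The merged locus of Nme1 and Nme2 changed to -0.081 with chromosome medians removed. Upper-quartile scaling moved the share of higher among all calls from 49.6% to 55.1%.

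Whether the replicate numbers pair the samples could not be settled with 3 libraries per genotype. Correlations of deviations between same-numbered libraries were 0.14, -0.094 and 0.048, and 3 of 6 libraries correlated best with their own number. The fit with the replicate block called 9794 loci against 9387, and 8 of the 10 genes, with Dut added at an edgeR adjusted p of 0.022, while Col3a1 was at -2.23 and lost its call (0.080). The lowest count among the 10 genes was 327 fragments.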
